A study of Mus musculus with 14 samples.

Results

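The 9 genes described here encode the subunits of the AMPA and kainate receptors, and were taken by symbol from the expression table: Gria1, Gria2, Gria3 and Gria4 for AMPA receptors, and Grik1, Grik2, Grik3, Grik4 and Grik5 for kainate receptors. They are 9 of 23375 genes in the table, and all 9 passed the filter on low values that left 14322 genes for testing. The brains of mice gave 14 libraries of poly(A) RNA, 2 per group. The groups were adult KO2 and KO3 brains, adult wild-type brains in sets 1 and 2 (the titles number them so), and KO2, KO7 and wild-type brains at the late embryonic stage E19.5. KO2 brains carried deletions of 2 imprinting control regions (differentially methylated regions, DMRs), H19-DMR and IG-DMR. KO3 brains carried deletions of H19-DMR, IG-DMR and Rasgrf1-DMR, 3 in all. KO7 brains carried deletions of 7, Gnas-DMR and Nespas-DMR, Grb10-DMR and Peg3-DMR, and those of Igf2r, Kcnq1 and Snrpn. The knockout mice were produced with haploid embryonic stem cells that carried these deletions. The labels do not give the parents, but the study is known for mice with genomes from mothers only (KO2 and KO3) or from fathers only (KO7), so that a deletion and the parental origin of the genomes cannot be told apart. The labels name no strain or sex, no adult age, and no separate animals behind the replicates, so the p-values rest on the spread between libraries, some or all of which may be technical.

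AMPA and kainate receptors are tetrameric cation channels opened by glutamate, the main excitatory transmitter of the brain. AMPA receptors carry most fast excitatory transmission, and a receptor that contains an edited GluA2 subunit, the product of Gria2, passes little calcium. Kainate receptors act on both sides of the synapse. GluK1, GluK2 and GluK3 form channels by themselves, while GluK4 and GluK5 raise the affinity for glutamate and need one of the other subunits to reach the surface as a working channel.

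A promoter window of 250 bases before to 50 bases after 1 annotated start, taken from a table of RefSeq promoters (build GRCm38.p6), was at hand for 6 of the 9 genes, namely Gria2, Gria4, Grik2, Grik3, Grik4 and Grik5. The windows of Grik2 and Grik3, which moved together in the comparisons below, and of Grik5, which moved apart from them, are shown. They lie on the minus strand at chr10:49788705-49789004 (Grik2), on the plus strand at chr4:125490446-125490745 (Grik3) and on the minus strand at chr7:25072320-25072619 (Grik5). The start used lies inside the gene's RefSeq bounds by 1407 bases for Grik2, 437 for Grik3 and 3325 for Grik5. Capitals mark GGGCGG, the core of the Sp1 box, or its reverse complement CCGCCC.
Grik2: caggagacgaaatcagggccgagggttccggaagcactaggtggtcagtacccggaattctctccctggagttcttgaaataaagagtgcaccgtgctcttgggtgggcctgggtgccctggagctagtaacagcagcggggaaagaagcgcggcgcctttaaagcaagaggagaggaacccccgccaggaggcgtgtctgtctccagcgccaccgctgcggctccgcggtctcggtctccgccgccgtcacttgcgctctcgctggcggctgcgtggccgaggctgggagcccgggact
Grik3: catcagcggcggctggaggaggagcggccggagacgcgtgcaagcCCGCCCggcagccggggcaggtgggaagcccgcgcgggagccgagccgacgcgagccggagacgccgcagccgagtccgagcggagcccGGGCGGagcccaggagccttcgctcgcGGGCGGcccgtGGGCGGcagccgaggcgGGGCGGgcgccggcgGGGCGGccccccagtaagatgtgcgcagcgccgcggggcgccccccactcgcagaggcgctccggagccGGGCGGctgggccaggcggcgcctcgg
Grik5: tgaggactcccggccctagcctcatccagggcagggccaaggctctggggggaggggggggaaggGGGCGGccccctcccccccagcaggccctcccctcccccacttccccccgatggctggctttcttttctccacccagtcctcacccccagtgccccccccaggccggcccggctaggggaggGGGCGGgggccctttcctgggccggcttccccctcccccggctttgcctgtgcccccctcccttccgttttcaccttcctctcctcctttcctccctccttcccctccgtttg
The Grik3 window held GGGCGG 6 times on the gene's strand and 1 time on the other strand, and the Grik5 window held it 2 times, while the Grik2 window held none. Matches were found in 35.7% of 32851 promoter windows of the same length. TATAAA, found in 13.6% of the windows, was in none of the 6. GC content was 64.7% for Grik2, 82.0% for Grik3 and 72% for Grik5, against a median of 52.7% over all windows. The Grik5 window was GC-rich but had only 10 CG pairs, a ratio of observed to expected CG of 0.28, against 26 CG pairs (0.84) for Grik2 and 50 (1.01) for Grik3. Grik2 and Grik3, whose levels moved in the same direction, therefore differed widely in these letters.

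Levels are given as FPKM (fragments scaled to transcript length and library size), which are set per length and so can be compared between genes. Gria2 was the most abundant of the 9 genes over all libraries, at 103.7 ± 19.3 FPKM (SD, n = 14), followed by Grik5 at 76.2 ± 15.4 and Gria1 at 62.3 ± 17.4. Gria4 averaged 29.2 ± 8.09 FPKM, Gria3 25.9 ± 12.5, Grik2 19.2 ± 6.89 and Grik3 16.3 ± 5.57. Grik4, at 9.09 ± 1.26 FPKM, and Grik1, at 8.48 ± 4.33, were the lowest. GluK5 transcripts were thus the main kainate receptor transcripts in every library, with 50.7% to 68.0% of the family's summed FPKM. Grik4 had the narrowest range of the kainate genes, from 7.04 to 11.2 FPKM over all 14 libraries.

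**Figure D1:**
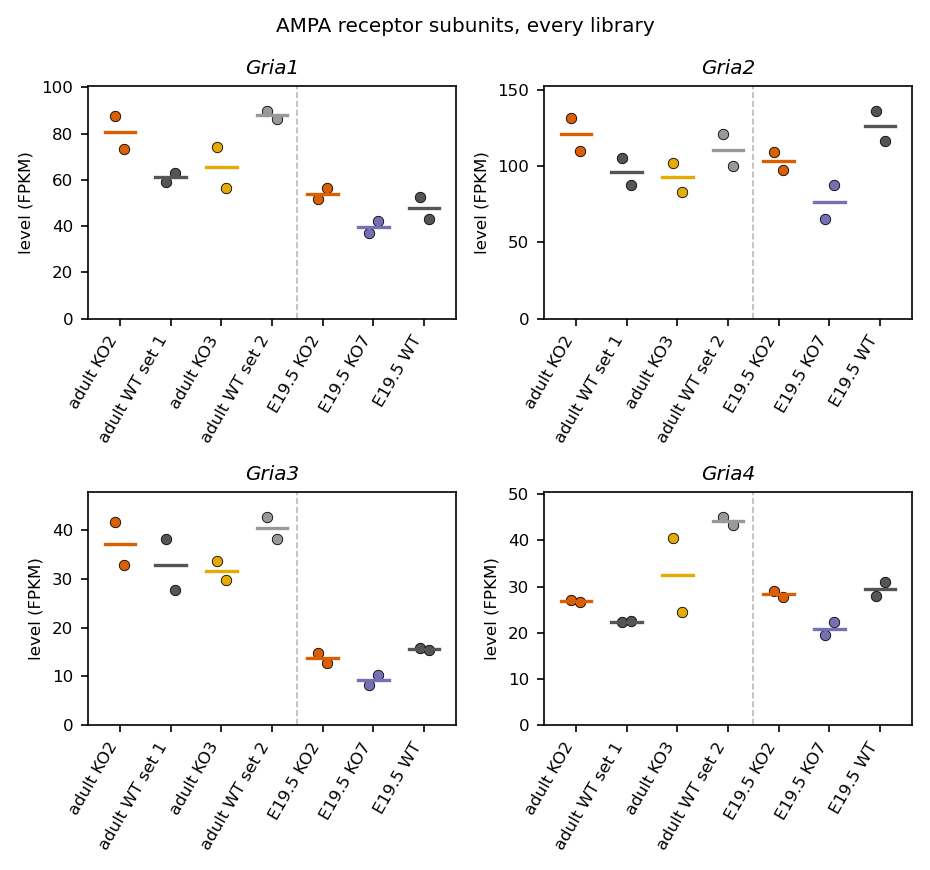
Level (FPKM, linear axis from 0) of the AMPA receptor genes in every library: each point is 1 library, each bar the mean of the 2 libraries of a group, and the dashed line parts adult from E19.5 groups. Gria3 lies at 27.6 to 42.6 FPKM in the 8 adult libraries and at 8.12 to 15.8 FPKM in the 6 at E19.5, whereas the Gria2 ranges of the stages overlap.

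The adult libraries were not all alike. Low values had been treated in another way in the 4 libraries of KO3 and set 2 than in the other 10: 9994 genes were listed at 0 in all 4, and the smallest maximum of any other gene in them was 1.02 FPKM. All 9 receptor genes stood well above that level in these 4 libraries (lowest value 3.67 FPKM, Grik1). Tested genes listed at 0 in all 4 stayed in the shares and medians over all tested genes. Between KO3 and set 2 the log2 change was above 0 for 6402 of the 14322 tested genes and below 0 for 6943, and the rest did not differ. Against set 1 or E19.5 wild type, a gene at 0 in set 2 could only be level or lower. Cerebellar markers were high in the same 4 libraries: the summed level of 6 genes was 477 to 626 FPKM in KO3 and 436 to 475 in set 2, against 67.8 to 92.4 in adult KO2 and 56.5 to 74.2 in set 1, where Gabra6 was at 0. Adult KO3 was therefore compared with set 2 and adult KO2 with set 1. Neuron markers were present throughout, with 7 genes summing to 1980 FPKM or more in every library, as brain tissue should show. The FPKM carry no read totals, so depth is unknown. Between 12701 and 13398 genes reached 1 FPKM in each library.

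Between E19.5 and adulthood the kainate receptor genes Grik1, Grik2 and Grik3 fell and the AMPA receptor gene Gria3 rose. The pattern appeared in wild-type brains (set 1 against E19.5 wild type) and in KO2 brains (adult against E19.5 KO2), which share no library. Grik4 did not pass the test at either genotype, and Gria2 and Gria4 did not pass it either. In wild type 4 of the 9 receptor genes were called, where 56.0% of all tested genes were called, so the count was no higher than the background. The 1 gene that rose compares with 21.9% of all tested genes called higher, and the 3 that fell with 34.1% called lower. In KO2 5 of the 9 were called, 2 higher and 3 lower, against 49.3% of all tested genes, 20.7% higher and 28.6% lower. In bulk tissue, fewer cells of a type and less RNA per cell cannot be told apart.

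Gria3, the X-linked gene of the GluA3 subunit, had 38.3 and 27.6 FPKM in adult wild-type set 1, against 15.8 and 15.5 FPKM in E19.5 wild type. In KO2 it had 41.7 and 32.8 FPKM in adults, against 14.8 and 12.8 at E19.5. Every adult library lay above every E19.5 library, and 2 of the 9 genes in wild type and 3 in KO2 did so without overlap, where 34.2% and 34.5% of all tested genes did. The means of Gria3 differed more than 2-fold at both genotypes. On the log2(FPKM + 1) scale used for all tests, Gria3 rose by 1.01 ± 0.17 (SE) in wild type (limma, Benjamini-Hochberg adjusted p = 0.00047) and by 1.36 ± 0.17 in KO2 (adjusted p = 7.74e-05).

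Grik1, the gene of GluK1, had 4.92 and 6.34 FPKM in adult set 1, against 14.9 and 14.1 FPKM in E19.5 wild type. It had 4.81 and 5.68 FPKM in adult KO2, against 11.9 and 16.2 FPKM in E19.5 KO2. The adult level was 0.387 of the E19.5 level in wild type and 0.374 of it in KO2. The adult values of 5 of the 9 genes lay below the E19.5 values without overlap in wild type, and of 5 in KO2, where 49.9% and 46.5% of all tested genes did. The log2 change was -1.24 ± 0.20 in wild type (limma adjusted p = 0.000308) and -1.26 ± 0.20 in KO2 (adjusted p = 0.000355).

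Grik2, the gene of GluK2, the most common partner of GluK5, had 15.0 and 16.1 FPKM in adult set 1, against 33.2 and 28.9 in E19.5 wild type. It had 13.8 and 16.4 FPKM in adult KO2, against 25.7 and 27.2 in E19.5 KO2. The adult wild-type mean was 0.50 of the E19.5 mean, and the groups did not overlap at either genotype. Grik2 changed by -0.95 ± 0.17 in wild type (limma adjusted p = 0.000528) and by -0.77 ± 0.17 in KO2 (adjusted p = 0.00255).

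Grik3, the gene of the low-affinity subunit GluK3, had 14.3 and 12.4 FPKM in adult set 1, against 25.8 and 22.5 in E19.5 wild type. It had 13.2 and 12.5 FPKM in adult KO2, against 24.5 and 21.1 in E19.5 KO2. Again no adult library reached an E19.5 library of its genotype. The log2 changes were -0.81 ± 0.15 in wild type (limma adjusted p = 0.000991) and -0.78 ± 0.15 in KO2 (adjusted p = 0.00165).

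Gria1, the gene of GluA1, the subunit most tied to synaptic plasticity, was called in KO2, a call lost under some alternatives. It had 87.6 and 73.5 FPKM in adult KO2, against 51.7 and 56.4 in E19.5 KO2, and rose by 0.56 ± 0.15 (limma adjusted p = 0.0109). The call was lost without adult KO2 replicate 1 (0.44, adjusted p = 0.0966) or without E19.5 KO2 replicate 1 (0.50, adjusted p = 0.0705), and with the adult wild-type sets pooled in the fit (0.56, adjusted p = 0.06). In wild type it had 59.0 and 63.1 FPKM in adult set 1, against 52.4 and 43.0 at E19.5, with a log2 change of 0.36 that did not pass (adjusted p = 0.07). It passed with median-of-ratios scaling (0.50, adjusted p = 0.0142), which moved the median of all genes to -0.03, from -0.15 without it, and with the adult wild-type sets pooled (0.62, adjusted p = 0.0156). It passed narrowly with only the compared groups fitted (0.36, adjusted p = 0.0457) and without the 3 libraries that stood apart in earlier results (0.36, adjusted p = 0.0448).

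Gria2 had 104.9 and 87.2 FPKM in adult set 1, against 136 and 116 in E19.5 wild type, and 132 and 109.8 in adult KO2, against 109 and 97.3 in E19.5 KO2. The adult libraries thus lay below the E19.5 libraries in wild type and above them in KO2. Neither difference passed: the log2 change was -0.39 in wild type (95% interval -0.79 to 0.01, adjusted p = 0.0889) and 0.22 in KO2 (-0.18 to 0.62, adjusted p = 0.338). The stage difference of KO2 exceeded that of wild type by 0.61 (interval 0.04 to 1.18), the most of the 9 genes, but this interaction did not pass limma's test over all genes (adjusted p = 0.308). No receptor gene passed the interaction (0 of 9, where 0.0628% of all tested genes were called and 2118 had an unadjusted p under 0.05).

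Grik5 and Grik4, the genes of the high-affinity subunits, showed no called stage difference. Grik5 had 93.8 and 78.6 FPKM in adult set 1, against 85.4 and 86.7 in E19.5 wild type, a log2 change of 0.00 with an interval of -0.34 to 0.34 (limma adjusted p = 0.991). Grik4 had 9.87 and 8.62 FPKM in adult set 1, against 9.02 and 9.88 in E19.5 wild type (log2 change -0.03, interval -0.38 to 0.32, adjusted p = 0.886). In KO2 the adult Grik5 values of 81.0 and 74.5 FPKM lay below the E19.5 values of 88.0 and 96.5, but the log2 change of -0.24 did not pass (adjusted p = 0.216). Gria4 had 22.3 and 22.5 FPKM in adult set 1, against 27.9 and 31.0 in E19.5 wild type, and missed the threshold too (log2 change -0.38, adjusted p = 0.0938). Gria4 and Gria2 passed when only the compared groups were fitted (adjusted p = 0.0144 and 0.0493).

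Which adult wild-type set was used changed 3 of these readings. With set 2 in place of set 1, an alternative chosen after seeing the data, 7 of the 9 genes were called (60.9% of all tested genes). Gria4 then had 45.0 and 43.3 FPKM in adults, against 27.9 and 31.0 at E19.5, and was called higher (log2 change 0.57, limma adjusted p = 0.0167), the opposite direction to set 1. Grik5 was called lower (58.3 and 47.7 against 85.4 and 86.7 FPKM, log2 change -0.70, adjusted p = 0.00238), and Gria1 higher (0.88, adjusted p = 0.000491). Gria3 (1.32), Grik1 (-1.47), Grik2 (-0.86) and Grik3 (-0.79) kept their directions and their calls.

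Cell type markers moved with stage as well. All 6 oligodendrocyte markers were called higher in adults, summing to 2394 to 3139 FPKM in set 1, against 33.9 to 41.7 in E19.5 wild type, and 4 of 6 neural progenitor markers were lower (55.6 to 57.2 FPKM in set 1, against 228 to 263). The summed neuron markers were 1998 to 2239 FPKM in set 1 and 1980 to 2165 in E19.5 wild type, with 5 of 7 members higher and 1 lower. These marker counts compare with 21.9% of all tested genes called higher and 34.1% called lower. The part of these cell types in the receptor results was not tested. The median log2 change of all tested genes between adult set 1 and E19.5 wild type was -0.15, against -0.81 for the 5 kainate genes and -0.01 for the 4 AMPA genes.

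**Figure D2:**
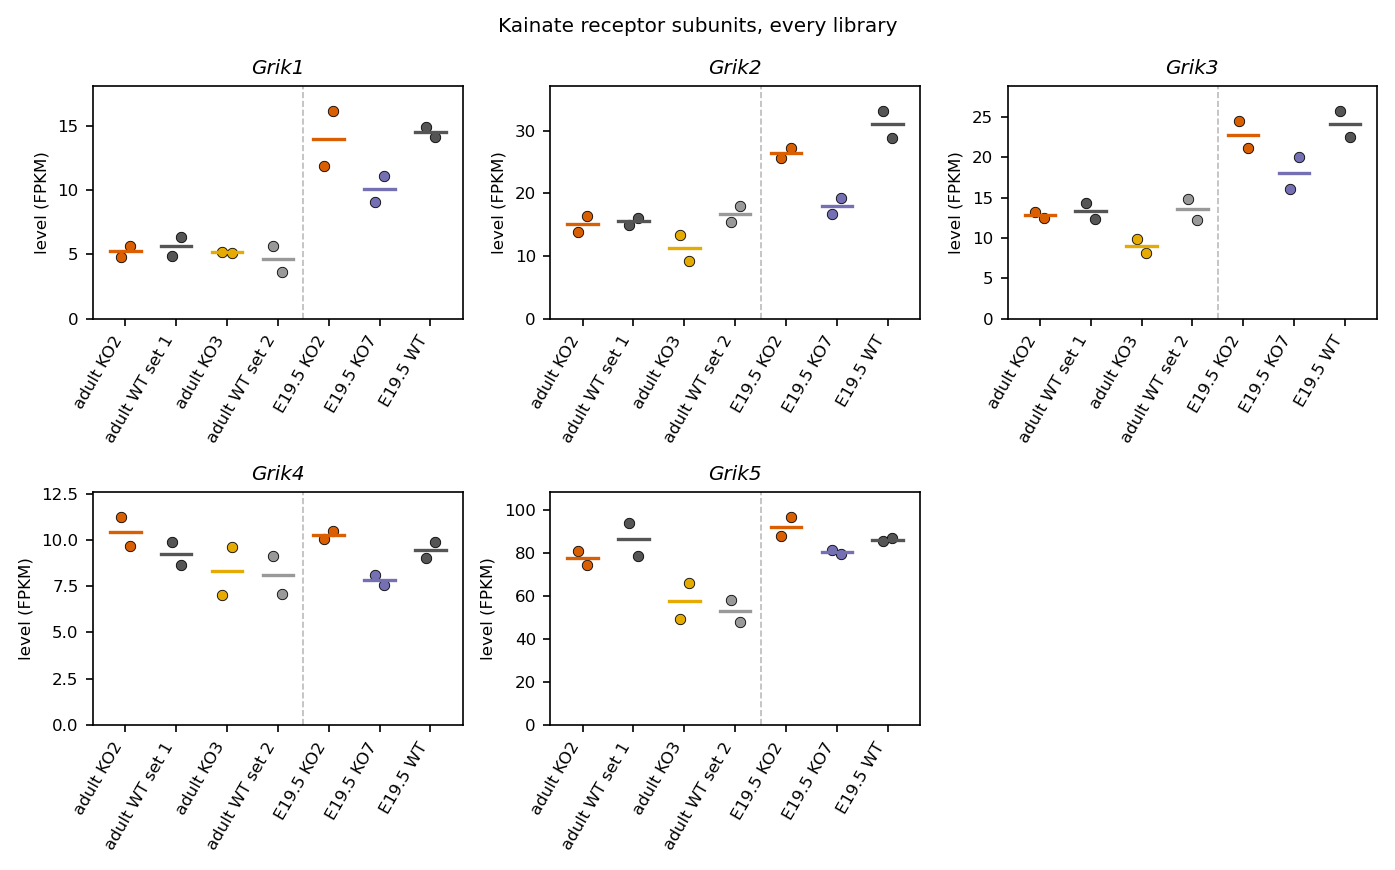
Level (FPKM, linear axis from 0) of the kainate receptor genes in every library: points are libraries, bars are means of 2 libraries, and the dashed line parts adult from E19.5 groups. Grik1 lies at 3.67 to 6.34 FPKM in the 8 adult libraries and at 9.07 to 16.2 in the 6 at E19.5, and Grik5 is at 47.7 to 65.9 FPKM in KO3 and set 2, below every other library.

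Shares within each family set the level of the family aside, and part of the picture then differed. They are descriptions over the 8 adult and 6 E19.5 libraries. Gria2 held 37.4% to 46.7% of the summed AMPA FPKM in adults, against 50.1% to 58.6% at E19.5. Gria3 held 13.4% to 17.0% in adults, against 6.2% to 7.5% at E19.5. For both genes the 8 adult libraries did not overlap the 6 at E19.5, although Gria2 itself was not called lower. Only wild type and KO2 had libraries at both stages. The genes of the other AMPA subunits together had 1.14 to 1.68 times the Gria2 level in adults, against 0.706 to 0.996 times at E19.5.

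In the kainate family the share of Grik1 was 3.6% to 6.2% in adults, against 6.9% to 9.4% at E19.5. Grik4 took 7.1% to 9.8% in adults, against 5.4% to 6.3% at E19.5, although its level did not pass the test, while the levels of Grik1, Grik2 and Grik3 were lower in adults. Grik5 took 53.8% to 68.0% in adults and 50.7% to 61.9% at E19.5, and the stages overlapped. They overlapped too for Grik2 (9.4% to 20.2% in adults, against 12.7% to 19.7% at E19.5) and Grik3 (8.3% to 14.4%, against 12.3% to 15.3%), whose levels were called lower. The summed kainate level was 84.6 to 138 FPKM in adults, against 131 to 171 at E19.5, and the summed AMPA level 194 to 299 FPKM in adults, against 130.0 to 232 at E19.5.

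**Figure D3:**
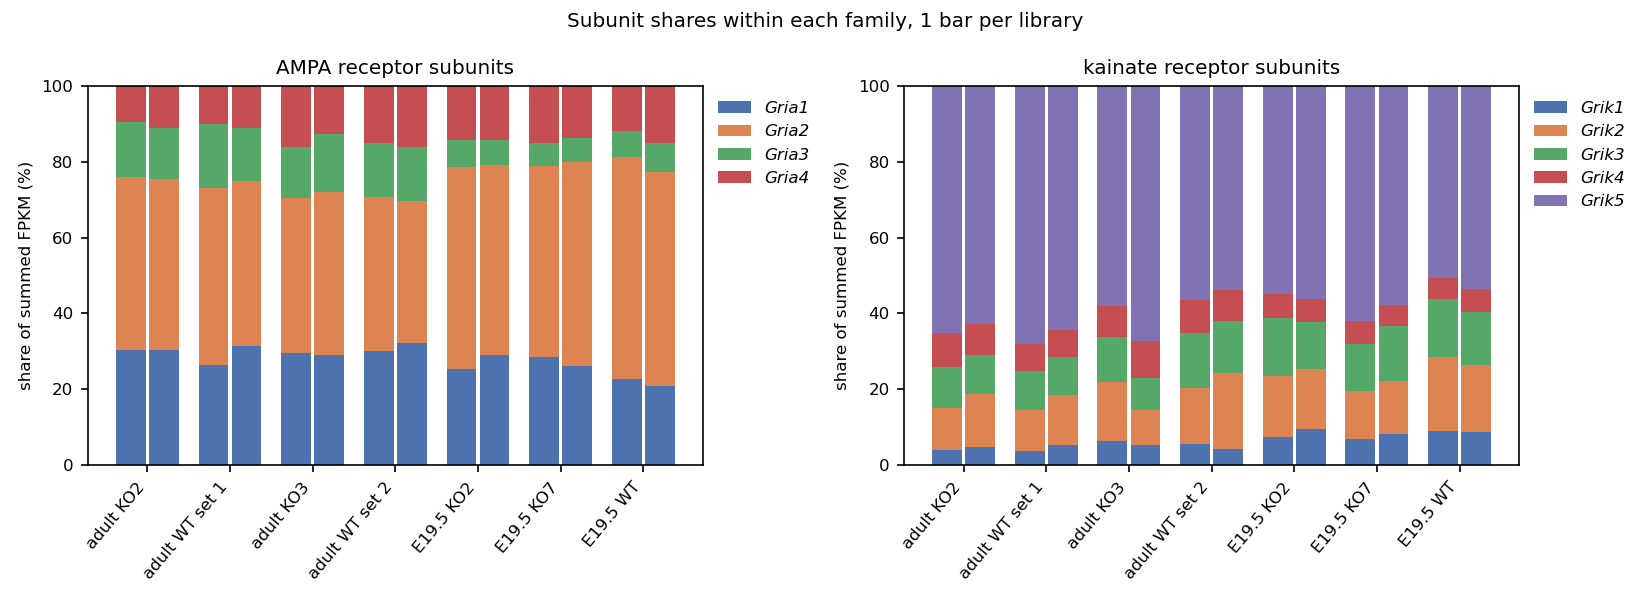
Share (%) of each gene in the summed FPKM of its family, with 1 stacked bar per library. Adult bars have a wider Gria3 band (13.4% to 17.0%, against 6.2% to 7.5% at E19.5) and a narrower Grik1 band (3.6% to 6.2%, against 6.9% to 9.4%).

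The proteins that work with these receptors were examined in the same fits, from lists of known partners. Most called AMPA auxiliary subunits were higher in adults: 6 of 15 rose and 3 fell in wild type, and 5 rose and 3 fell in KO2. Over all tested genes 21.9% were called higher and 34.1% lower in wild type, and 20.7% and 28.6% in KO2. The list median was 0.43 and 0.37, against -0.15 and -0.09 for all tested genes. Cacng3, the gene of the stargazin relative TARP gamma-3, had 72.1 and 54.8 FPKM in adult set 1, against 19.7 and 21.8 in E19.5 wild type (log2 change 1.55, limma adjusted p = 4.79e-06). Prrt1 (1.94), encoding an AMPA receptor-associated membrane protein, and Cpt1c (1.11), encoding a protein of the receptor's complex in the endoplasmic reticulum, also rose. All 3 had the direction of Gria3.

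Cacng4, the gene of TARP gamma-4, went the other way, with 34.7 and 36.5 FPKM in adult set 1, against 130.3 and 138 in E19.5 wild type (log2 change -1.88, limma adjusted p = 9.33e-06). In KO2 Cacng4 changed by -2.03. Shisa6 (-1.29) and Cnih2 (-0.51), auxiliary subunits that slow desensitization or deactivation, fell in wild type too. With set 2 as the adults Shisa6 lay on the other side, at 13.2 and 11.2 FPKM, against 9.54 and 9.40 in E19.5 wild type (0.33, adjusted p = 0.226), while Cacng3, Prrt1, Cpt1c, Cacng4 and Cnih2 kept direction and call. Cacng4 was therefore lower in adults at both genotypes, while Cacng3 was higher.

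Neto2, an auxiliary subunit of kainate receptors, fell with Grik1, Grik2 and Grik3. It had 9.84 and 7.89 FPKM in adult set 1, against 36.7 and 28.7 in E19.5 wild type, and 9.81 and 9.51 in adult KO2, against 23.9 and 25.4 in E19.5 KO2. The groups were far apart, and the log2 changes were -1.77 in wild type (limma adjusted p = 7.98e-05) and -1.27 in KO2 (adjusted p = 0.00107). Neto1, the other gene of its kind, did not pass (-0.22, adjusted p = 0.335, and -0.31, adjusted p = 0.189).

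Among 14 genes for anchoring and trafficking, 9 rose and 3 fell in wild type, and 7 rose and 4 fell in KO2. The shares over all tested genes were 21.9% higher and 34.1% lower in wild type, and 20.7% and 28.6% in KO2. List medians were 0.80 and 0.45, against -0.15 and -0.09 for all tested genes. Arc, an activity-induced gene whose protein drives AMPA receptor endocytosis, rose by 5.35 in wild type and by 4.73 in KO2, but its adult levels varied widely, with 107, 80.8, 140 and 61.9 FPKM in adult KO2 and set 1. Nptx1 (2.93), a secreted pentraxin that clusters AMPA receptors, and the scaffold gene Dlg1 (1.67) rose in wild type as well. Grip1 (-1.42) and Grip2 (-0.82), whose proteins bind the tail of GluA2 and GluA3, fell, as did the adaptor gene Ap2b1 (-0.53).

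Adarb1, the gene of the enzyme ADAR2 that edits the Gria2 transcript, had 43.1 and 54.8 FPKM in adult set 1, against 12.7 and 14.4 in E19.5 wild type (log2 change 1.77, limma adjusted p = 2.47e-05), and rose by 1.80 in KO2. Adarb2, its relative without known editing activity, fell in wild type (-0.63, adjusted p = 0.031), a call lost with set 2 as the adults (-0.34, adjusted p = 0.21). Gria2 itself changed by -0.39 in wild type and 0.22 in KO2, without a call. Of the kinase genes whose products phosphorylate GluA1, Camk2a (4.32) and Prkcb (1.39) rose in wild type. Of 6 genes for glutamate release and uptake, 4 rose in both genotypes, where 21.9% (wild type) and 20.7% (KO2) of all tested genes were called higher. Slc1a2, the main glial glutamate transporter (3.72), Slc17a7, a vesicular transporter (3.31), and Slc1a3 (1.05) led in wild type.

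**Figure D4:**
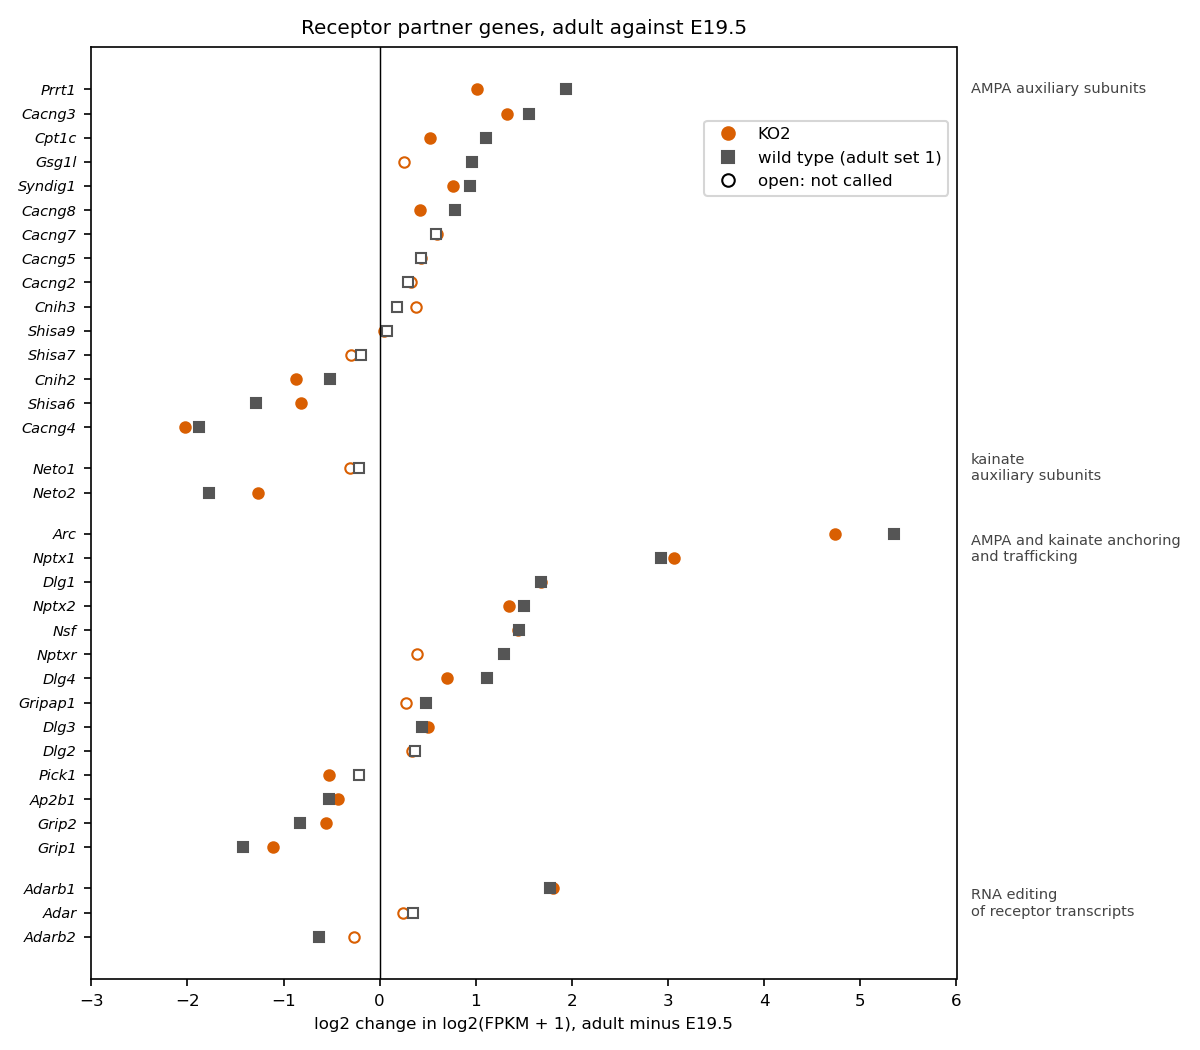
Log2 change in log2(FPKM + 1), adult minus E19.5, for the receptors' partner genes in KO2 (circles) and wild type with adult set 1 (squares), filled where limma called the gene and grouped by the lists named at the right. Cacng3 lies right of 0 and Cacng4 left of it at both genotypes, Neto2 lies at -1.27 and -1.77, and Adarb1 at 1.80 and 1.77.

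At E19.5 the KO7 brains had lower levels of all 9 receptor genes than wild type, and 3 of the 9 passed the test: Gria2, Gria3 and Grik2. Over all tested genes 4.45% were called in this comparison and 1.43% were called lower. The 9 genes all lay below wild type without overlap, where 29.6% of all tested genes did so, and their median log2 change was -0.48, against 0.00 for all tested genes. Each of the 3 calls was lost when any 1 of the 4 libraries was left out, so 0 of 9 passed then.

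Grik2 had 16.7 and 19.3 FPKM in KO7, against 33.2 and 28.9 in wild type. Gria2 had 65.5 and 87.7 FPKM in KO7, against 136 and 116 in wild type. Gria3 had 8.12 and 10.2 FPKM in KO7, against 15.8 and 15.5 in wild type. Both KO7 libraries were lower than both wild-type libraries for each gene, and the KO7 mean was 0.579 (Grik2), 0.607 (Gria2) and 0.586 (Gria3) of the wild-type mean.

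The log2 change of Grik2 was -0.76 ± 0.17 (limma adjusted p = 0.0291), that of Gria3 -0.72 ± 0.17 (adjusted p = 0.043) and that of Gria2 -0.72 ± 0.18 (adjusted p = 0.0494). With 1 library left out, Grik2 ranged from -0.86 to -0.66, Gria3 from -0.87 to -0.57 and Gria2 from -0.93 to -0.51. The Grik2 call was nearest to holding without KO7 replicate 2 (-0.86, adjusted p = 0.0717) and farthest without KO7 replicate 1 (-0.66, adjusted p = 0.254), and without wild-type replicate 1 or 2 it was -0.66 (adjusted p = 0.226) or -0.85 (adjusted p = 0.0755). Directions were negative in every such fit.

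The other 6 genes gave values without a call. Grik1 had 9.07 and 11.1 FPKM in KO7, against 14.9 and 14.1 in wild type (log2 change -0.49, limma adjusted p = 0.185). Gria4 had 19.51 and 22.2 FPKM in KO7, against 27.9 and 31.0 in wild type (-0.48, adjusted p = 0.157), and Grik3 had 16.1 and 20.1 FPKM, against 25.8 and 22.5 (-0.40, adjusted p = 0.167). The smallest differences were those of Gria1 (36.9 and 42.2 FPKM in KO7, against 52.4 and 43.0 in wild type, -0.26), Grik4 (-0.24) and Grik5 (81.3 and 79.7 FPKM in KO7, against 85.4 and 86.7 in wild type, -0.10, interval -0.44 to 0.25).

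Among the receptors' partner genes, Neto1, the kainate auxiliary subunit, had 12.9 and 10.8 FPKM in KO7, against 23.9 and 17.0 in wild type, and just missed (-0.73, limma adjusted p = 0.0518). None of 15 AMPA auxiliary subunits passed (nearest Shisa6, -0.71, adjusted p = 0.101). The auxiliary list had a median of -0.04.

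Other markers moved in KO7 beside the receptor genes. All 6 endothelial and pericyte markers were higher in value and 2 of them were called, with a summed level of 150.4 to 181 FPKM in KO7, against 82.6 to 91.7 in wild type. Of all 14322 tested genes, 7252 were higher in value and 432 were called higher. No neuron marker of 7 was called (median log2 change -0.23), and their summed level was 2400 to 2836 FPKM in KO7, against 1980 to 2165 in wild type. Tubb3 made up that gap in the sum (2282 and 1849 FPKM in KO7, against 1384 and 1521 in wild type), while 5 of the 7 were lower in value. The Y-linked gene Eif2s3y had 22.6 and 25.0 FPKM in KO7 and 0 in E19.5 wild type, and Xist, the RNA of the inactive X, had 0.0159 and 0.0403 FPKM in KO7, against 117 and 106 in wild type. Sex therefore differed together with genotype, and Gria3 is X-linked. The part of cell composition and of sex in the receptor results was not tested.

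In E19.5 KO2 brains no receptor gene passed against the same wild-type libraries (0 of 9, limma, where 1.28% of all tested genes were called and 2305 had an unadjusted p under 0.05). Gria2 had 109 and 97.3 FPKM in KO2, against 136 and 116 in wild type (log2 change -0.29, interval -0.69 to 0.12). Grik2 had 25.7 and 27.2 FPKM in KO2, against 33.2 and 28.9 (-0.22, interval -0.58 to 0.14). Both lay below wild type without overlap, as did Gria3, while Grik4 and Grik5 lay above it. That is 3 genes below and 2 above, where 29.9% of all tested genes lay below and 27.3% above. Among the partner genes only Prrt1 passed, with 22.8 and 21.6 FPKM in KO2, against 13.1 and 11.4 in wild type (0.81, adjusted p = 0.0354). Oligodendrocyte markers summed to 92.9 to 167 FPKM in KO2, against 33.9 to 41.7 in wild type, with 2 of 6 called higher, and their part in these values was not tested. Xist had 1.498 and 84.0 FPKM in the E19.5 KO2 libraries, against 117 and 106 in wild type. Unlike in KO7, low Xist did not come with Y-linked RNA, as Eif2s3y had 0 and 0.0274 FPKM in these KO2 libraries. The part of Xist in X-linked Gria3 (14.8 and 12.8 FPKM in KO2, against 15.8 and 15.5 in wild type) was not tested.

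Adult KO2 brains likewise gave no call among the 9 receptor genes against wild-type set 1 (limma, where 0.154% of all tested genes were called and 1051 had an unadjusted p under 0.05). The AMPA genes had higher values in KO2: Gria1 had 87.6 and 73.5 FPKM in KO2, against 59.0 and 63.1 in set 1 (log2 change 0.39, interval 0.05 to 0.73, adjusted p = 0.62). Gria2 (0.33) and Gria4 (0.25) also lay above set 1 without overlap, and Gria3 overlapped. These 3 genes above compare with 30.0% of all tested genes. The kainate genes all overlapped, from -0.14 for Grik5 (81.0 and 74.5 FPKM in KO2, against 93.8 and 78.6 in set 1) to 0.16 for Grik4. No partner gene passed either, the nearest being the kinase gene Camk2b (0.67, adjusted p = 0.0924). The striatal markers summed to 120.1 to 227.5 FPKM in adult KO2, against 346.1 to 353.7 in set 1, with all 5 lower in value and 0 called. Choroid plexus markers summed to 119.1 to 1157 FPKM in KO2, against 164.5 to 337.4 in set 1. The part of these tissues in the receptor values was not tested.

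Adult KO3 brains had lower Grik2 and Grik3 than wild-type set 2, and these 2 of the 9 genes passed. Over all tested genes 22.1% were called and 8.20% were called lower, so 2 of 9 stood above the share called lower and level with the share called in either direction. Tested genes listed at 0 in all 4 libraries could not be called and are part of both shares. The calls over all genes were 1990 higher and 1174 lower, but 1609 higher and 1808 lower with quantile scaling. Grik3 had 9.88 and 8.09 FPKM in KO3, against 14.9 and 12.3 in set 2, and Grik2 had 13.4 and 9.20 FPKM in KO3, against 15.4 and 17.9 in set 2. No KO3 library reached a set 2 library for either gene, and 5 of the 9 genes lay below without overlap, where 26.1% of all tested genes did. The log2 change was -0.54 ± 0.15 for Grik3 (limma adjusted p = 0.0325) and -0.54 ± 0.17 for Grik2 (adjusted p = 0.0399).

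Both calls were lost without KO3 replicate 2 or without either set 2 library. Without KO3 replicate 2 Grik2 changed by -0.29 (adjusted p = 0.315) and Grik3 by -0.41 (adjusted p = 0.216), and no receptor gene was called. Without set 2 replicate 1 the values were -0.65 (adjusted p = 0.0924) for Grik2 and -0.41 (adjusted p = 0.18) for Grik3, and without set 2 replicate 2 they were -0.44 (adjusted p = 0.159) and -0.68 (adjusted p = 0.0569), again with 0 of 9 called. Without KO3 replicate 1 the count was 4: Grik2, Grik3, Gria1 (-0.63, adjusted p = 0.00655) and Gria4 (-0.82, adjusted p = 0.000369).

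The AMPA genes of KO3 varied between its libraries. Gria4 had 40.5 and 24.6 FPKM in KO3, against 45.0 and 43.3 in set 2 (log2 change -0.47, limma adjusted p = 0.0781). Gria1 had 74.2 and 56.5 FPKM in KO3, against 89.8 and 86.2 in set 2 (-0.44, adjusted p = 0.0624). KO3 replicate 2 was the lower library for both, and the cerebellar markers did not move together between the KO3 libraries. Pcp2 had 190 and 373 FPKM in KO3, against 162 and 156 in set 2, while in KO3 Gabra6 had 47.3 and 29.1 FPKM, Cbln3 35.1 and 26.2, Zic1 49.1 and 42.2, Cbln1 75.3 and 72.9 and Calb1 81.0 and 83.0. Markers of other cell types differed between the KO3 libraries too, in both directions. The neuron marker Map2 had 133.3 and 70.7 FPKM in KO3, against 143.6 and 131.5 in set 2. The astrocyte marker Slc1a3 had 126.9 and 67.1 FPKM, against 138.2 and 128.4. The inhibitory neuron marker Sst went the other way, with 314.4 and 665.4 FPKM, against 207.4 and 230.5. The part of all these markers in the receptor values was not tested. Grik5 (0.11), Grik4 (0.03) and Grik1 (0.14) overlapped between KO3 and set 2.

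Partner genes called in KO3 depended on single libraries as well. Of 15 AMPA auxiliary subunits 4 fell, where 8.20% of all tested genes were called lower, led by Cacng7 (-0.88), Shisa6 (-0.87) and Shisa7 (-0.68), with a list median of -0.17 against 0.00 for all tested genes. All 3 genes of the editing list fell, Adarb2 (without known editing activity) by 0.89, Adarb1 by 0.61 and Adar by 0.51 on the log2 scale. Their limma adjusted p-values were 0.022, 0.05 (just under the threshold before rounding) and 0.031. Only 2 of the 3 were called with a pseudocount of 0.1, with no filter or with the replicate block. The delta receptor gene Grid1 (-0.99) and the kinase gene Prkca (-0.83) fell too, the anchoring genes Dlg2 (-1.01) and Ap2b1 (-0.46) fell, and Pick1 (0.50) and Gripap1 (0.42), whose proteins bind AMPA receptors or their scaffold, rose. No auxiliary, anchoring or editing gene was called without KO3 replicate 2, without set 2 replicate 1 or with only the compared groups fitted. Over all genes the count was then 295, 8 or 6, against 3164.

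The adult wild-type sets, alike in genotype by their labels, differed from each other in 3 receptor genes, where 20.9% of all tested genes were called (980 higher and 2010 lower, but 1631 higher and 1470 lower with quantile scaling). Gria4, the AMPA subunit gene used by Bergmann glia and many interneurons, had 45.0 and 43.3 FPKM in set 2, against 22.3 and 22.5 in set 1. Gria1 had 89.8 and 86.2 FPKM in set 2, against 59.0 and 63.1 in set 1. Grik5 had 58.3 and 47.7 FPKM in set 2, against 93.8 and 78.6 in set 1. For these genes the sets did not overlap (2 above and 1 below, where 28.8% and 37.8% of all tested genes did not), and for the other 6 they did.

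Gria4 was higher in set 2 by 0.95 ± 0.18 (limma adjusted p = 0.00431), Gria1 by 0.52 ± 0.15 (adjusted p = 0.0359), and Grik5 was lower (-0.69 ± 0.16, adjusted p = 0.0104). Gria4 passed without any 1 library, whereas Gria1 was lost without any 1 of the 4 (0.47 to 0.57, adjusted p = 0.0985 to 0.167). Grik5 was lost without set 1 replicate 1 (-0.57, adjusted p = 0.0914) or set 2 replicate 2 (-0.55, adjusted p = 0.0847). The same sets differed in all 6 cerebellar markers, with Cbln3 at 31.7 and 38.3 FPKM in set 2, against 0.0359 and 0.0432 in set 1, and in Shisa6 (13.2 and 11.2 FPKM in set 2, against 2.73 and 3.91 in set 1, log2 change 1.62). Auxiliary genes lower in set 2 included Cacng4 (-1.0), Gsg1l (-0.66) and Cacng8 (-0.54). The part of cerebellar tissue in the receptor differences was not tested.

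**Figure D5:**
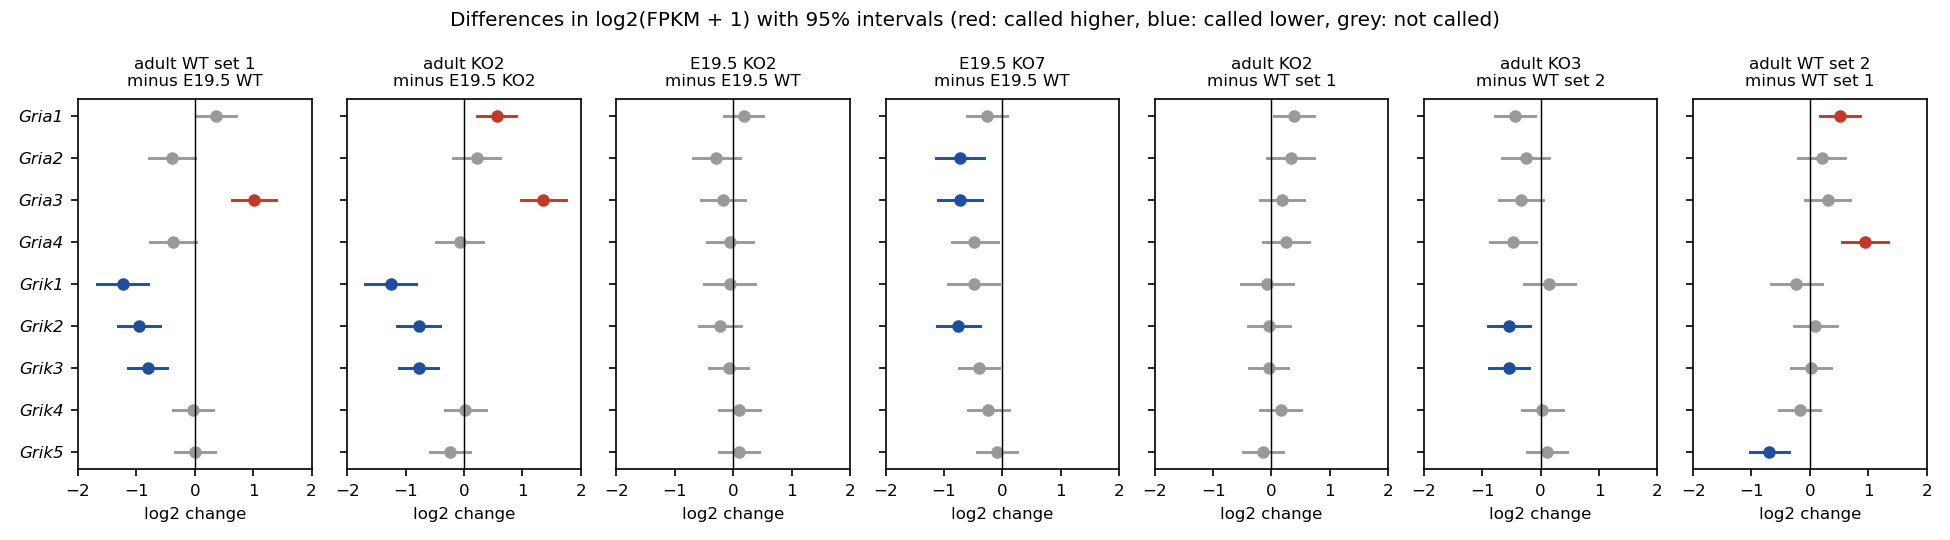
Log2 change in log2(FPKM + 1) with its 95% interval for each receptor gene in 7 comparisons, red where called higher, blue where called lower and grey where not called. The first 2 panels, adult against E19.5, share the called Gria3 (1.01 and 1.36), Grik1, Grik2 and Grik3, and the KO7 panel has every point left of 0.

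Gene by gene, neighbouring groups in the order of mean levels mostly overlapped. For Gria2 the order ran from E19.5 wild type (126 FPKM) through adult KO2 (121), set 2 (111), E19.5 KO2 (103), set 1 (96.0) and KO3 (92.6) to E19.5 KO7 (76.6), and each group overlapped the next. For Gria3 all adult groups overlapped their neighbours, from 40.5 FPKM in set 2 to 31.7 in KO3, and stood apart from E19.5 wild type (15.6), KO2 (13.8) and KO7 (9.16), which also stood apart from one another. For Grik2 the order began with E19.5 wild type (31.0), KO2 (26.4) and KO7 (18.0), the last of which overlapped adult set 2 (16.7), and ended with KO3 (11.3), which stood apart from adult KO2 (15.1).

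Of all tested genes outside the 9, the one with the highest Pearson r to each receptor gene over the 14 libraries on the log2 scale was taken as the most alike, as a description in which stage differences and shared libraries set much of the r. These were Syt10 for Gria1 (0.97), Epha4 for Gria2 (0.94), Scn8a for Gria3 (0.99), Pms1 for Gria4 (0.95), Sema4g for Grik1 (0.98), Pcdhb21 for Grik2 (0.96), BC018507 for Grik3 (0.99), Asic2 for Grik4 (0.85) and Slc12a9 for Grik5 (0.97). Among the receptor genes themselves, Grik2 and Grik3 had the highest r over all libraries (0.93), and r was 0.77 within adults and 0.89 within E19.5. Gria4 and Grik5 ran opposite within adults (r = -0.88), where Grik5 was lowest in the 4 libraries of KO3 and set 2. Gria4 was highest in 3 of these 4, but KO3 replicate 2 had 24.6 FPKM, below both adult KO2 libraries (27.1 and 26.7). The gene Zfp574 overlaps Grik5 in the RefSeq annotation, and the use of strand in the counting is not given in the sources used here, so reads of the pair may not be fully separated.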

How the data were processed

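Brain poly(A) RNA was sequenced by Illumina HiSeq, per the labels. The authors deposited FPKM for each gene and library in 1 table. Build mm9, TopHat2 2.1.1, Cufflinks 2.2.1 and CASAVA appear in the submitters' processing notes, without their roles, while annotation and scaling were not given in the sources used here. The header names FPKM for 10 of the 14 libraries, and the values of the other 4 were taken as FPKM too.

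Groups came from the titles. Genes with at least 1 FPKM in 2 libraries (14322) were transformed to log2(FPKM + 1), which understates changes of low genes, and fitted with limma 3.58.1 (R 4.3.3, trend option, 2-sided) over the 7 groups. P-values were adjusted over all tested genes by Benjamini-Hochberg, and under 0.05 a gene is called. The interaction compared the stage difference of KO2 with that of wild type. On simulated data with changes of known size the fit recovered 81% to 85.5% of genes changed by 1 on the log2 scale and at most 1.5% of those changed by 0.5, over the 5 comparisons simulated. Only a small part of the genes was changed in each simulation. The adjusted threshold was therefore stricter there than in comparisons with many called genes.

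The members and the lists of partners and markers were chosen with earlier results of these data known. Partner genes are named where they were among the 3 largest called changes each way in their list, or had the smallest p where none was called. Some partner genes that this rule names are not reported here. Pcp2, Cbln3, Tubb3, Map2, Slc1a3 and Sst as markers, and the pair r-values, were chosen after their values were seen. Gene and promoter names were matched to RefSeq (GRCm38.p6), 21625 by symbol and 1619 by synonym. Alternatives varied the pseudocount, filter, scaling, groups fitted, pooling of the wild-type sets, replicate block and libraries.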

Additional observations from a re-analysis of the deposited data

How the results depend on the processing

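Of 981 values for single receptor genes under an alternative, 922 stayed on their side of the threshold without a reversal of a called value, 41 lost the call, 17 gained one and 1 reversed (Gria4 between adult and E19.5 wild type, 0.57 with set 2 in place of set 1). Most of these values belong to results not called in the main fit, which had no call to lose. In KO7 Gria2 lost its call under 8 of 13 alternatives, Gria3 under 7 and Grik2 under 5. In KO3 Grik2 and Grik3 each lost it under 6 of 13. The Gria3, Grik1, Grik2 and Grik3 calls between stages held under every alternative in both genotypes. Between adult and E19.5 wild type the count of called genes was 7 with only the compared groups fitted and 7 with set 2 in place of set 1 (chosen after seeing the data), against 4. For KO7 it was 1 with no filter and 0 with the wild-type sets pooled, against 3. For KO3 it was 0 with no filter, 6 with quantile scaling, 0 with only the compared groups fitted and 0 without the 3 libraries that stood apart in earlier results (E19.5 KO2 replicate 1, KO3 replicate 2 and set 2 replicate 2), against 2. The interaction called 5 genes higher and 4 lower over all genes, but 3 and 5 with median-of-ratios scaling. The cause of these moves was not tested. With 1 library left out, when the lone library is assumed to vary like the other groups, the counts were 4 to 4 for the wild-type stages, 4 to 5 for the KO2 stages, 0 to 0 for KO7, 0 to 4 for KO3, 1 to 2 for set 2 against set 1, and 0 to 0 for the interaction and both KO2 comparisons with wild type. The replicate block left every count as it was: 4 and 5 between stages, 0 for the interaction and E19.5 KO2, 3 for KO7, 0 for adult KO2, 2 for KO3 and 3 between the sets. The labels give replicates a shared number but nothing that pairs them, and the correlation of same-numbered deviations was -0.16 to 0.23 over the 7 comparisons.

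Over all genes the counts moved further: 637 for KO7 ranged from 47 to 1326, 3164 for KO3 from 6 to 6773, 183 for E19.5 KO2 from 6 to 391, 22 for adult KO2 from 0 to 65, 9 for the interaction from 2 to 667, 2990 between the sets from 1265 to 4458, 8020 for the wild-type stages from 6217 to 9000 and 7062 for the KO2 stages from 5132 to 7955. Changes near 0.5 on the log2 scale were rarely recovered in simulation, where few genes were changed. In comparisons with many calls some changes of that size passed in the main fit, such as Grik3 in KO3 (-0.54) and Gria1 between the KO2 stages (0.56). With 2 libraries per group and unknown depth, a missing call still does not show that levels were alike.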
